A study of Mus musculus with 2 samples.

Results

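The locus described here lies on mouse chromosome 15 and holds Cyp11b1 (ENSMUSG00000075604.5), Cyp11b2 (ENSMUSG00000022589.7) and Gml2 (ENSMUSG00000068600.10). Its members were taken by gene name from the long-read counts of both libraries, with every transcript class kept. They are 3 of 16910 annotated nuclear genes with a read. They account for 174 of 125539 transcript models with a read in replicate 1 and for 107 of 65191 in replicate 2. New gene models that overlap the locus on either strand were listed beside them.

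The libraries were made from adrenal glands of female B6CASTF1/J mice aged 2 months. RNA molecules were read at length, so that 1 read can follow the exons of 1 molecule. There is 1 group with 2 libraries, no treatment and no second genotype. The biosample labels number the animals 3 and 4, although both libraries share a donor entry and both library descriptions carry the number 3. B6CASTF1/J is a first-generation cross, and reads of its parental alleles are not separated in the counts. The labels do not say whether the gland of 1 animal or a pool was used, and an input of 1 µg of RNA is given for replicate 1 only. Counts on annotated nuclear genes came to 1209457 reads in replicate 1 and 502655 in replicate 2. Counts scaled to these totals are given as CPM, the usual unit for libraries of unequal depth. With 3 counts taken as the floor in each library, a gene with no read may stand as high as 2.48 CPM in replicate 1 and at most 5.97 CPM in replicate 2. All p-values compare these libraries with each other and cover counting error only. The adrenal label was checked against cortex markers, and 5 of 5 were detected, from Cyp11a1 at 20228 and 19861 CPM to Mc2r at 81.9 and 83.6 CPM. Medulla markers were detected too (5 of 5, summed to 11580 and 6677 CPM), as were fat markers (4 of 4, 3445 and 3191 CPM). The tissue was therefore a mixture. Liver markers were detected at lower levels (3 of 3, 147.2 and 55.7 CPM), as was 1 of 5 kidney markers. Markers of the X-zone of the cortex (2 of 2) summed to 6242 and 3665 CPM.

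Corticosterone and aldosterone are finished in the adrenal cortex by a pair of closely related mitochondrial cytochromes P450. Cyp11b1 encodes the 11β-hydroxylase of the zona fasciculata, which makes corticosterone, the main glucocorticoid of the mouse, from 11-deoxycorticosterone. Cyp11b2 encodes the aldosterone synthase of the zona glomerulosa, the thin outer layer that responds to angiotensin II and potassium. Electrons reach both enzymes from NADPH through ferredoxin reductase and ferredoxin. Gml2 belongs to a family of Ly6-like genes for glycolipid-anchored proteins that surrounds the pair.

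The genes are arranged tail to tail and head to tail. On mm10, Cyp11b2 spans chr15:74851010-74856318 on the minus strand, and Cyp11b1 follows it on the same strand at chr15:74834125-74841643, after a gap of 9366 bases. Gml2 spans chr15:74819071-74834871 on the plus strand and runs into the 3′ end of Cyp11b1, where the gene bodies share 747 bases. The last exon of the transcript Gml2-203, 285 bases at chr15:74834587-74834871, lies within the 3′ untranslated part of Cyp11b1 exon 9. Each Cyp11b gene has 1 annotated transcript of 9 exons. Cyp11b1-201 is 3165 bases long with 1628 bases after its stop codon, and Cyp11b2-201 is 1625 bases long with 29 bases after its stop codon.

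How far a read can be assigned to one gene or the other depends on the sequence of each exon. The coding parts have 1503 bases in Cyp11b1 and 1506 in Cyp11b2, without the stop codon, and 86.9% of the aligned bases are identical. Exon 1 is the most alike, at 99.2%, followed by exon 6 at 96.4% and exon 7 at 94.9%. Exon 5 is the least alike, at 65.2%, and holds the 3 bases by which the coding lengths differ. The coding parts of exon 1 are shown because a junction between the genes, described further on, lies at their end. They were read from the M21 transcripts on mm10, minus strand, at chr15:74841368-74841612 and chr15:74855987-74856231, and capitals mark the bases that differ.
Cyp11b1 coding exon 1: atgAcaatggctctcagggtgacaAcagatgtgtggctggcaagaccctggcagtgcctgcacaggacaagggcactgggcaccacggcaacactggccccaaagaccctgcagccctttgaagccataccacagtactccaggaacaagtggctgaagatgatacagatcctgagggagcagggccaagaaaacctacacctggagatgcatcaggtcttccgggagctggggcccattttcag
Cyp11b2 coding exon 1: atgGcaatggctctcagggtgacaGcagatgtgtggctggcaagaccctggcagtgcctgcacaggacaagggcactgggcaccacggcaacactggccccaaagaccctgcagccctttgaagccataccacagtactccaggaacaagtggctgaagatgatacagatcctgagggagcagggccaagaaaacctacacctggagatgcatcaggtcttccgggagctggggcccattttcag
The 2 differences are A4G and A25G, written as Cyp11b1 base, position from the A of the start codon, and Cyp11b2 base. The 220 bases that follow, up to the end of the exon, are identical, and so are the first 24 bases of exon 2. Upstream of the start codon, 18 of the 31 bases annotated in Cyp11b1 differ from Cyp11b2 when aligned without gaps.

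Exon 4 is shown whole because the genes differed most in how often it was skipped. It is 204 bases long in both, all coding, at chr15:74838905-74839108 in Cyp11b1 and chr15:74853464-74853667 in Cyp11b2, and capitals again mark the 34 bases that differ.
Cyp11b1 exon 4: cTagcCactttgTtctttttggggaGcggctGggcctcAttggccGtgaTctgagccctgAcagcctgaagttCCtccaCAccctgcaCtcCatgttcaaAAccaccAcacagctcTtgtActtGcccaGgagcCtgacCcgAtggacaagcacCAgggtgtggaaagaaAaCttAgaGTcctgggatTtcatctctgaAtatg
Cyp11b2 exon 4: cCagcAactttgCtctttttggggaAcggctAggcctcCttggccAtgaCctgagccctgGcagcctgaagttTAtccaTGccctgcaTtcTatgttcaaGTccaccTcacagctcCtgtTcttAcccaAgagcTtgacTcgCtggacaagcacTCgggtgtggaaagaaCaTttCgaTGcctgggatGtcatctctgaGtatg
The longest stretch shared by the copies of exon 4 is 14 bases, so a full-length read of this exon carries many bases that tell the genes apart.

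**Figure D1:**
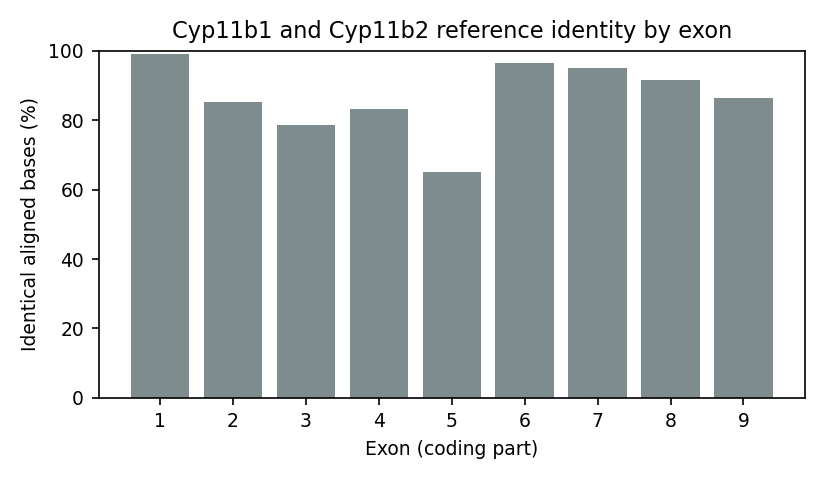
Percent of identical aligned bases between the reference coding parts of Cyp11b1 and Cyp11b2, by exon (bars, axis from 0). Exon 1 stands at 99.2% and exon 5 at 65.2%.

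Cyp11b1 was among the most abundant genes of the gland. It had 13937 reads in replicate 1 and 7998 in replicate 2, and ranked 3 among annotated nuclear genes in both. These counts are 11523 CPM and 15911 CPM, with a mean of 13717 ± 3103 CPM (SD, n = 2). Replicate 2 was higher by 0.47 on the log2 scale (standard error, SE, 0.020), or 1.38-fold. The adjusted p of Fisher's exact test (two-sided, 1 test for each gene), with Benjamini-Hochberg adjustment over 10170 genes, was 9.89e-112, and the difference was under the 2-fold set for a call. Fewer cells of a type and less RNA per cell cannot be told apart in these bulk libraries.

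Cyp11b2 had 1313 and 424 reads, or 1086 CPM in replicate 1 and 843.5 CPM in replicate 2. The mean was 964.6 ± 171 CPM (SD, n = 2), and the gene ranked 85 and 128. It moved in the other direction from Cyp11b1, with a log2 ratio of replicate 2 over replicate 1 of -0.36 (SE 0.081, adjusted p by the exact test 7.89e-05), again short of 2-fold. Cyp11b1 therefore had 10.6 reads for each Cyp11b2 read in replicate 1 (exact 95% interval 10.03 to 11.24) and 18.9 in replicate 2 (17.11 to 20.85). The intervals of this ratio did not overlap between the libraries. Per base of annotated transcript the same ratio was 5.45 and 9.68. A long read is counted once whatever its length, but the ratio per length is given because the annotated transcripts differ in length. Models of Cyp11b2 that end past the annotated end, described further on, do not enter these lengths. Whether several reads came from copies of the same molecule was not tested.

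Gml2 was far lower, with 100 reads in replicate 1 and 11 in replicate 2. These are 82.7 CPM and 21.9 CPM, with a mean of 52.3 ± 43.0 CPM (SD, n = 2). The gene was lower in replicate 2 by 3.63-fold (log2 ratio -1.86, SE 0.45, adjusted p by the exact test 2.25e-05). It was the only 1 of the 3 members to be called between the libraries. Calls were made for 9.55% of the genes tested in either direction and for 3.59% as lower in replicate 2. The calls comprised 606 genes higher in replicate 2 and 365 lower, and 724 higher and 270 lower with TMM scaling. The reads behind the Gml2 count are described further on, since none of them came from an annotated Gml2 transcript.

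**Figure D2:**
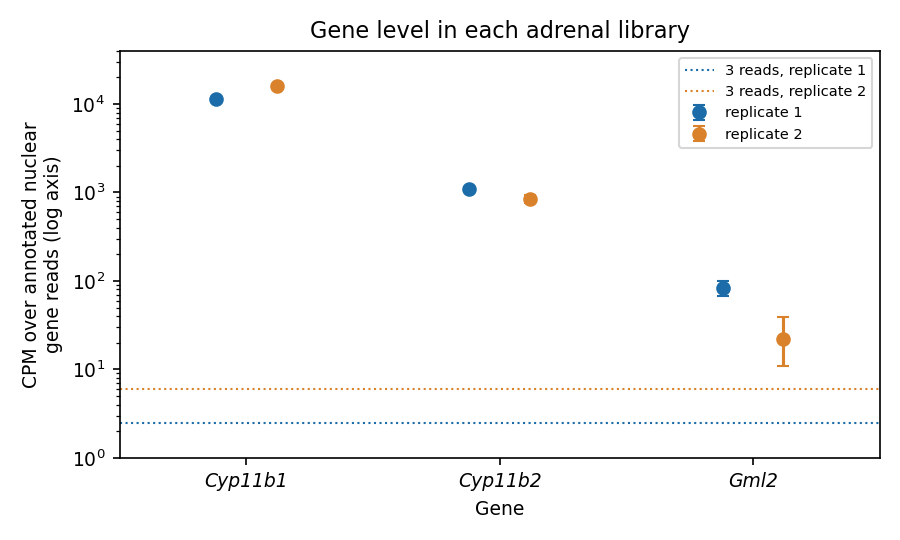
Level of each gene in the 2 libraries, in CPM over reads of annotated nuclear genes on a log axis, with exact 95% intervals for counting error as bars and the level of 3 reads as dotted lines. Cyp11b1 stood at 11523 and 15911 CPM, Cyp11b2 at 1086 and 843.5 CPM, and Gml2 at 82.7 and 21.9 CPM.

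The neighbours on either side were silent or had fewer reads than both Cyp11b genes. Of the nearest 5 annotated genes on each side, Gml, Gm17189, D730001G18Rik, Gm39556 and Gm29126 had no read in either library. Gml, the relative of Gml2 on the minus strand, starts 256 bases from the start of Gml2. The others were Ly6 genes and single loci. Ly6k had 22 and 6 reads, and Ly6d had 61 and 32. On the side of Cyp11b2, the uncharacterised gene 2010109I03Rik had 33 and 25 reads, and the pseudogene Gm6610 had 1 and 1. Ly6e, a broadly expressed Ly6 gene, had 179 and 98 reads (148 and 195.0 CPM), more than Gml2 in both libraries. Of these, Ly6k, Ly6d, 2010109I03Rik and Ly6e had enough reads to be tested, and none of the 4 was called between the libraries.

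Of a list of 25 genes for the steps, electron carriers, regulators and receptors around both enzymes, 21 had 3 or more reads in both libraries. Among the 22 tested, 4 were called higher in replicate 2 and 0 lower, where 5.96% and 3.59% of all genes tested were called. The list's median log2 ratio was 0.14 beside -0.06 over all genes tested. Cyp21a1, whose 21-hydroxylase makes 11-deoxycorticosterone, stood at 14022 and 28073 CPM. Kcnk3, a background potassium channel of cortex cells, stood at 1122 and 3561 CPM. Agtr1a, an angiotensin II receptor, stood at 37.2 and 141.3 CPM, and Nr4a1, an immediate early transcription factor, at 156.3 and 925.1 CPM. Each of these 4 was higher in replicate 2, while Cyp11b2 was not. Fdx1, the ferredoxin that carries electrons to both enzymes, stood at 1904 and 1084 CPM, and its reductase Fdxr at 1315 and 1150 CPM. Fdx1 was lower in replicate 2 (log2 ratio -0.81) without reaching 2-fold.

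Most reads of both Cyp11b genes were assigned to the annotated transcript, with its whole chain of 8 introns. Cyp11b1-201 took 12244 of 13937 reads in replicate 1, or 87.9% (exact 95% interval 87.3 to 88.4), and 7490 of 7998 in replicate 2, or 93.6% (93.1 to 94.2). Cyp11b2-201 took 1057 of 1313 reads, or 80.5% (78.3 to 82.6), and 374 of 424, or 88.2% (84.7 to 91.1). In both genes the share was higher in replicate 2. The difference was 5.80 percentage points for Cyp11b1 (adjusted p by Fisher's exact test 2.62e-43) and 7.70 points for Cyp11b2 (0.00206), under the 10 points set for a call. Neither member was called, against 16.4% of 2098 genes tested. Over those genes the median share of the main transcript was 80.0% in replicate 1 and 86.5% in replicate 2. Once incomplete matches and unspliced reads were left out of the total, the difference for Cyp11b1 was -0.36 points and for Cyp11b2 0.014 points.

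The share of reads outside annotated transcripts is the complement here, because each gene has 1 annotated transcript. It was 12.1% and 6.35% for Cyp11b1 and 19.5% and 11.8% for Cyp11b2. The medians over all genes tested were 15.1% and 9.68%, and 17.7% of these genes were called. Incomplete splice matches hold part of the annotated introns, and some of them also hold a new intron. They made up 5.60% and 2.20% of Cyp11b1 reads and 7.69% and 6.13% of Cyp11b2 reads. Reads that the authors class as genomic, unspliced except for 1 Cyp11b1 read in replicate 2, made up 3.53% and 0.575% of Cyp11b1 reads. Of Cyp11b2 reads they made up 6.63% in replicate 1, while replicate 2 had none, which allows a share of up to 0.708%. Models that the authors class as new, in catalog or not in catalog, held 420 and 286 Cyp11b1 reads and 68 and 24 Cyp11b2 reads.

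**Figure D3:**
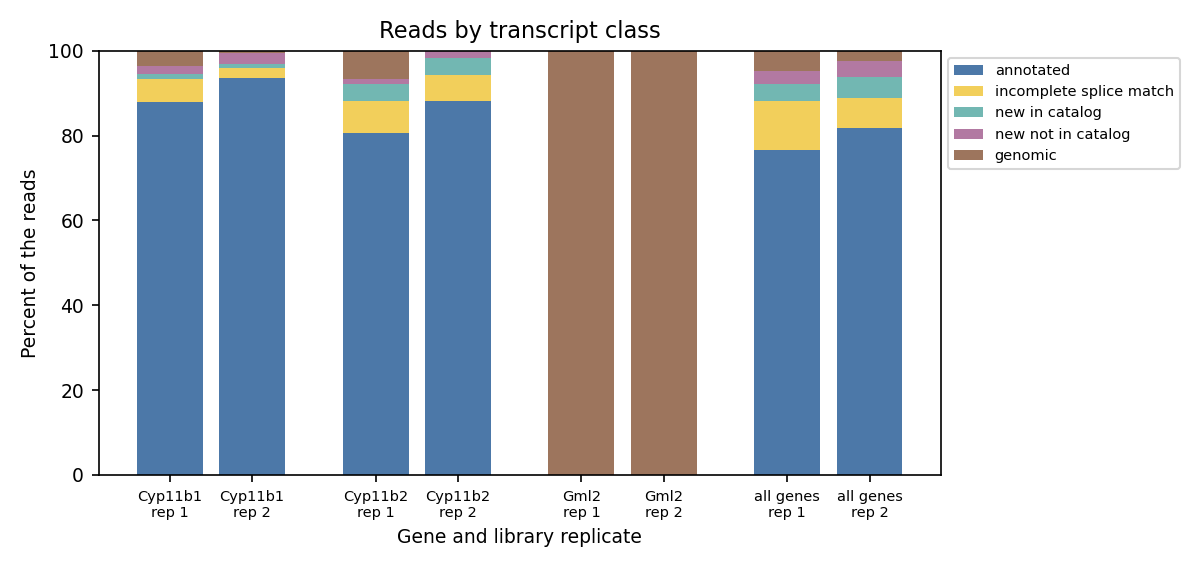
Percent of reads in each transcript class for the 3 genes and for all annotated nuclear genes, by library (stacked bars from 0 to 100). Annotated transcripts hold 87.9% and 93.6% of Cyp11b1 reads, and the genomic class holds 100% of Gml2 reads in both libraries.

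Cyp11b1 reads that lacked the 5′ part of the transcript made up a larger share in replicate 1. Among Cyp11b1 reads that carried an unbroken run of annotated introns up to the last one, 629 of 12873 (4.89%, 4.52 to 5.27) in replicate 1 and 120 of 7610 (1.58%, 1.31 to 1.88) in replicate 2 had fewer than 8 introns. The most frequent of these had only the last intron, with 158 and 35 reads. Those that began at exon 4 had 125 and 19 reads, at exon 5 108 and 15, at exon 3 91 and 17, and at exon 2 74 and 16. Those that began at exon 6 had 61 and 10, and those with only the last 2 introns had 12 and 8. For Cyp11b2 the corresponding shares were 38 of 1095 (3.47%, 2.47 to 4.73) and 9 of 383 (2.35%, 1.08 to 4.41), and these intervals overlapped. Its forms with the last 7, the last 3, the last 2 and only the last intron had 11 and 3, 4 and 1, 5 and 2, and 10 and 2 reads. Over all annotated nuclear genes, incomplete matches took 11.6% of reads in replicate 1 and 7.08% in replicate 2, so the direction was that of the libraries as a whole.

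Exon 4 of Cyp11b2 was skipped in about 3% of reads, and exon 4 of Cyp11b1 was hardly ever skipped. In Cyp11b2, 30 of 1202 reads in models that span the exon lacked it in replicate 1, or 2.50% (exact 95% interval 1.69 to 3.54). In replicate 2 it was 15 of 418, or 3.59% (2.02 to 5.85), and the mean was 3.04% ± 0.77 (SD, n = 2). In Cyp11b1 the counts were 6 of 12941 (0.0464%, 0.0170 to 0.101) and 3 of 7860 (0.0382%, 0.00787 to 0.112). The intervals of the genes did not overlap in either library, while those of the libraries overlapped for each gene. Skipping exon 4 removes 204 bases or 68 codons and keeps the reading frame. The form in which this was the sole change had 27 reads in replicate 1 and 14 in replicate 2. It was the most abundant Cyp11b2 form that the authors class as new. The form that kept intron 8 alone, classed as an incomplete match, had more reads in both libraries.

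The last intron of Cyp11b2 was also kept more often than that of Cyp11b1. Models that retain intron 8, which is 266 bases long in Cyp11b2, held 62 of 1223 spanning reads in replicate 1 (5.07%, 3.91 to 6.45) and 16 of 423 in replicate 2 (3.78%, 2.18 to 6.07). For Cyp11b1, whose intron 8 is 366 bases long, they held 113 of 13414 (0.842%, 0.695 to 1.01) and 54 of 7952 (0.679%, 0.511 to 0.885). The intervals of the genes did not overlap in either library. The form with this as its sole change had 55 and 15 Cyp11b2 reads and 80 and 41 Cyp11b1 reads. The deposited files give 1 end per model and not the end of each read. A read that crosses the intron and a read that ends inside it therefore cannot be told apart.

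Other introns were kept less often. For intron 2 of Cyp11b2, 13 of 1202 reads (1.08%) kept it in replicate 1 and 1 of 418 (0.239%) in replicate 2. Cyp11b1 had 33 of 12857 (0.257%) and 9 of 7839 (0.115%) for the same intron. Intron 4 of Cyp11b1 was kept in 16 and 1 reads, intron 3 in 9 and 4, and intron 6 of Cyp11b2 in 1 and 2. Exon 8, 189 bases or 63 codons, was skipped in 26 of 13254 (0.196%) and 14 of 7917 (0.177%) Cyp11b1 reads, which also keeps the frame. In Cyp11b2 it was skipped in 9 of 1213 reads (0.742%) in replicate 1 and in 0 of 421 in replicate 2, which allows a share of up to 0.713%. Exons 3, 5, 6 and 7, whose lengths are not multiples of 3, were each skipped in 1 to 7 Cyp11b1 reads per library. In Cyp11b2 exon 7 was skipped in 1 read of replicate 1. The other counts for these exons were 0, which allows up to 0.2498% in replicate 1 and 0.718% in replicate 2.

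**Figure D4:**
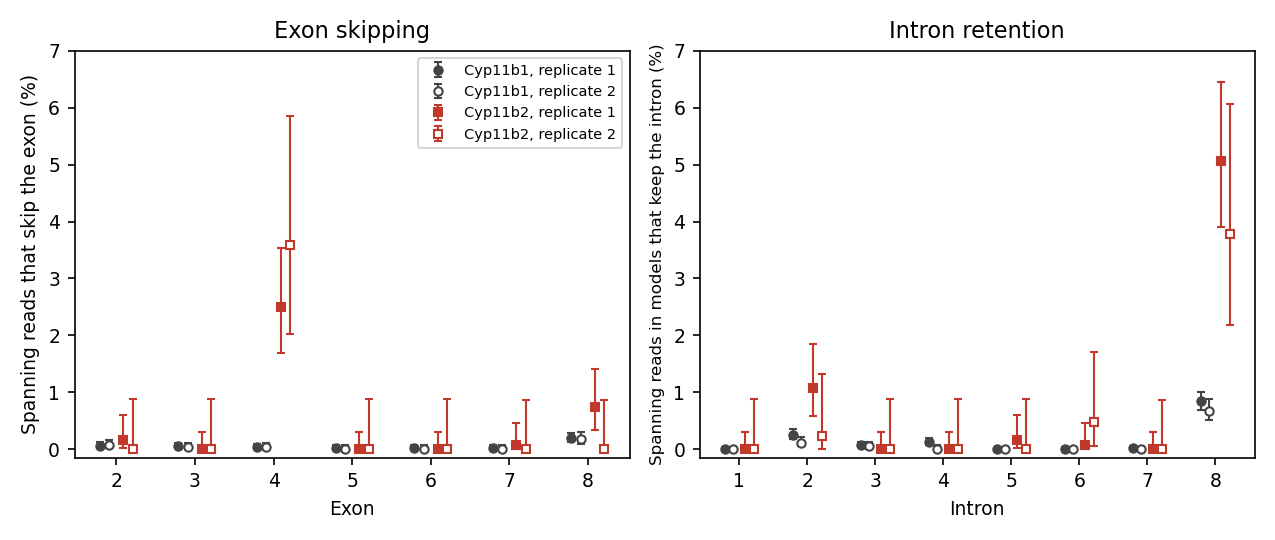
Percent of spanning reads that skip each inner exon (left) and of spanning reads in models that keep each intron (right), with exact 95% intervals for counting error, for Cyp11b1 (circles) and Cyp11b2 (squares) in replicate 1 (filled) and replicate 2 (open). Exon 4 and intron 8 of Cyp11b2 stand apart, at 2.50% and 3.59% skipped and at 5.07% and 3.78% retained.

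In Cyp11b1 the most abundant new form used another acceptor for the last intron. Its exon 9 began at chr15:74835887, 21 bases or 7 codons before the annotated start of the exon, a length that keeps the frame of the exon. The form had 138 reads in replicate 1 and 109 in replicate 2. Over every model with this site the counts were 148 of 13414 spanning reads (1.10%, 0.933 to 1.29) and 114 of 7952 (1.43%, 1.18 to 1.72). The intervals of the libraries overlapped. In Cyp11b2 an acceptor 21 bases before exon 9 was seen in 0 of 1223 and 0 of 423 reads, which allows shares of up to 0.245% and 0.709%. The 21 bases are intronic in the annotation and are not printed, so whether they hold a stop codon was not tested.

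Some new sites of Cyp11b1 shifted the start of an exon by a few bases. Joined to the annotated donor, an acceptor 4 bases inside exon 8 had 39 and 28 reads, and one 4 bases inside exon 4 had 12 and 13. An acceptor 6 bases inside exon 2 had 6 and 4 reads with the annotated donor. Reads that joined these acceptors to another donor are not in these counts. The same 4-base shift in exon 4 of Cyp11b2 had 2 reads in each library. The starts of these exons are shown, in order at chr15:74836398-74836421, chr15:74839085-74839108, chr15:74840942-74840965 and, for Cyp11b2, chr15:74853644-74853667, all on the minus strand of mm10. Capitals mark the bases that are lost.
Cyp11b1 exon 8 start: ACAGtcctcaatgtgaatctgtat
Cyp11b1 exon 4 start: CTAGccactttgttctttttgggg
Cyp11b1 exon 2 start: GCACAGtgtagggaaaacacagat
Cyp11b2 exon 4 start: CCAGcaactttgctctttttgggg
Each run of lost bases ends in AG, the letters that stand at the end of nearly all introns. A shift by 4 bases changes the reading frame, and a shift by 6 bases keeps it.

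Further new sites of Cyp11b1 lay around exons 2, 3 and 6. An acceptor 31 bases before exon 6 had 36 and 22 reads, which changes the frame. An exon of 107 bases within intron 2, at chr15:74840393-74840499, had 25 and 14 reads, and one of 47 bases within intron 1 had 3 and 3. A donor 29 bases past exon 2 had 20 and 8 reads, and one 89 bases inside exon 2 had 13 and 10. A donor 108 bases past exon 1 had 14 and 7 reads. These include the 3 and 3 reads of the 47-base exon, which ends at this donor. An acceptor 18 bases before exon 3 had 10 and 4 reads. A form that skipped exon 8 alone had 22 and 11 reads, one that skipped exon 2 alone 5 and 4, and one that kept intron 2 alone 14 and 6. A donor 4 bases past exon 7 had 5 and 6 reads. In a form with 5 and 4 reads, the 4-base acceptor shift in exon 4 came with a donor in intron 3. As in the counts of single sites above, only sites paired with an annotated site were counted in total, by intron. Introns with both sites new were left out, a position paired with different introns counts for each, and the donor of Cyp11b2 exon 1 is included. Over both libraries Cyp11b1 had 49 such sites. Of these, 21 were found in both libraries and 14 had at least 3 reads in both. For Cyp11b2 the numbers were 20, 2 and 0.

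Among Cyp11b2 forms with at least 3 reads, several were found in replicate 1 alone. A form without exon 8 had 8 reads there. A donor 27 bases inside exon 8 and a donor 45 bases past exon 4 each defined a form with 3 reads. A form that began in exon 2 and kept intron 2 had 5 reads, and one that stopped at exon 5 had 3. The form that kept intron 2 as its sole change had 6 reads in replicate 1 and 1 in replicate 2. At the depth of replicate 2, with 424 reads of the gene, a form at 0 may still hold up to 0.708% of them.

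In all, 30 spliced models had at least 3 reads in both libraries, of which 26 belonged to Cyp11b1, 4 to Cyp11b2 and 0 to Gml2. Of the 131 intron chains of Cyp11b1 in replicate 1 and 84 in replicate 2, 51 were found in both, or 38.9% and 60.7% of each set. Of 37 and 18 chains of Cyp11b2, 12 were found in both, or 32.4% and 66.7%. Most models were rare, and 76 of 135 Cyp11b1 models in replicate 1 and 46 of 86 in replicate 2 rested on 1 read.

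A few reads joined exons of both genes. In replicate 1, 5 of 15250 reads of the pair (0.0328%, 0.0106 to 0.0765) had exon 1 of Cyp11b2 joined to exon 2 of Cyp11b1 across 15021 bases. Of these, 4 went on through exon 9 and 1 ended at exon 4 of Cyp11b1. Replicate 2 had 0 of 8422, which allows up to 0.0356%. The join falls inside the 244 bases that are the same in both genes across the end of exon 1 and the start of exon 2, shown above for exon 1. The bases that can place exon 1 are therefore A4G, A25G and the untranslated part before them. Another join, from exon 9 of Cyp11b2 into exon 8 of Cyp11b1, had 1 read in each library. The reads' own sequences were not analysed here, and whether the joined reads came from 1 molecule was not tested.

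At the 3′ end, spliced Cyp11b1 reads also reached a distal last exon inside the Gml2 gene body. In this form exon 8 was joined to an exon that begins at chr15:74829557 on the minus strand, 4567 bases past the annotated end of Cyp11b1, in place of exon 9. It had 11 reads in replicate 1 and 4 in replicate 2, with another 1 and 2 reads that also skipped exon 8. The last exon was 2462 bases long in the model of replicate 1 and 715 bases in that of replicate 2, and it overlapped no exon of Gml2. Spliced Cyp11b2 models outside the annotated transcript include incomplete matches. Apart from 1 model in each library, they ended 1275 to 2098 bases past the annotated end. They held 166 of the 169 spliced Cyp11b2 reads outside the annotated transcript in replicate 1 and 49 of 50 in replicate 2. Because a model has 1 end for all its reads, this does not give the share of molecules with a longer end.

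The Gml2 count consisted of unspliced reads alone. In replicate 1 all 100 reads fell in 1 model, chr15:74831563-74834871 on the plus strand. It ends with the last exon of Gml2-203, and 285 of its 3309 bases (8.61%) are Gml2 exon. In replicate 2, 9 reads lay at chr15:74831563-74832618, which holds no Gml2 exon, and 1 read each lay in models of 577 and 996 bases within Cyp11b1 exon 9. No Gml2 read crossed an annotated intron, and the 4 annotated transcripts had 0 reads, which allows up to 2.48 and 5.97 CPM. Among the 3501 genes whose reads summed to 100 or more, 4 (0.114%) had genomic reads alone. The call of Gml2 as lower in replicate 2 thus compares unspliced reads. Over all annotated nuclear genes the genomic class held 4.66% of reads in replicate 1 and 2.46% in replicate 2, so it was also lower there.

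Unspliced reads of Cyp11b1 gathered in the same region on the other strand. In replicate 1, 407 reads lay at chr15:74834701-74835267, within the untranslated part of exon 9, and 84 lay at chr15:74833444-74834871, across the annotated end. In replicate 2, 44 lay at chr15:74834871-74835537. In Cyp11b2 a single unspliced model, chr15:74848912-74853796, had 87 reads in replicate 1 and none in replicate 2.

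New gene models stood beside the members on both strands. The largest lay opposite Gml2 and just past the end of Cyp11b1, on the strand of Cyp11b1. It had 262 reads in replicate 1, at chr15:74831563-74833444, and 98 in replicate 2, at chr15:74831563-74834125. These are 216.6 and 195.0 CPM, or 1.88% and 1.23% of the Cyp11b1 count, and more than the Gml2 reads on the plus strand in both libraries. The model of replicate 2 begins at the last annotated base of Cyp11b1, and that of replicate 1 begins 681 bases past it. Opposite Cyp11b1 itself, new gene models on the plus strand had 8 reads in replicate 1, of which 5 lay at chr15:74838494-74841643 and 3 at chr15:74835093-74835766. Replicate 2 had 2 reads, again at chr15:74838494-74841643. They make up 0.0574% (0.0248 to 0.113) and 0.0250% (0.00303 to 0.0903) of the reads on both strands. For comparison, spike-ins with at least 100 annotated reads were checked, 11 in replicate 1 and 5 in replicate 2. New gene models on them, whose strand was not read, held 1 of 16745 reads (0.00597%, 0.000151 to 0.0333) in replicate 1. In replicate 2 they held 0 of 4252 (interval up to 0.0867%). Whether the Cyp11b1 shares differ from these was not tested, and the check was added after the data were seen. Opposite Cyp11b2 no antisense model on the plus strand had a read in either library. A new intergenic model of 8 reads in replicate 2, chr15:74849735-74851010, joins the end of Cyp11b2 on its strand.

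**Figure D5:**
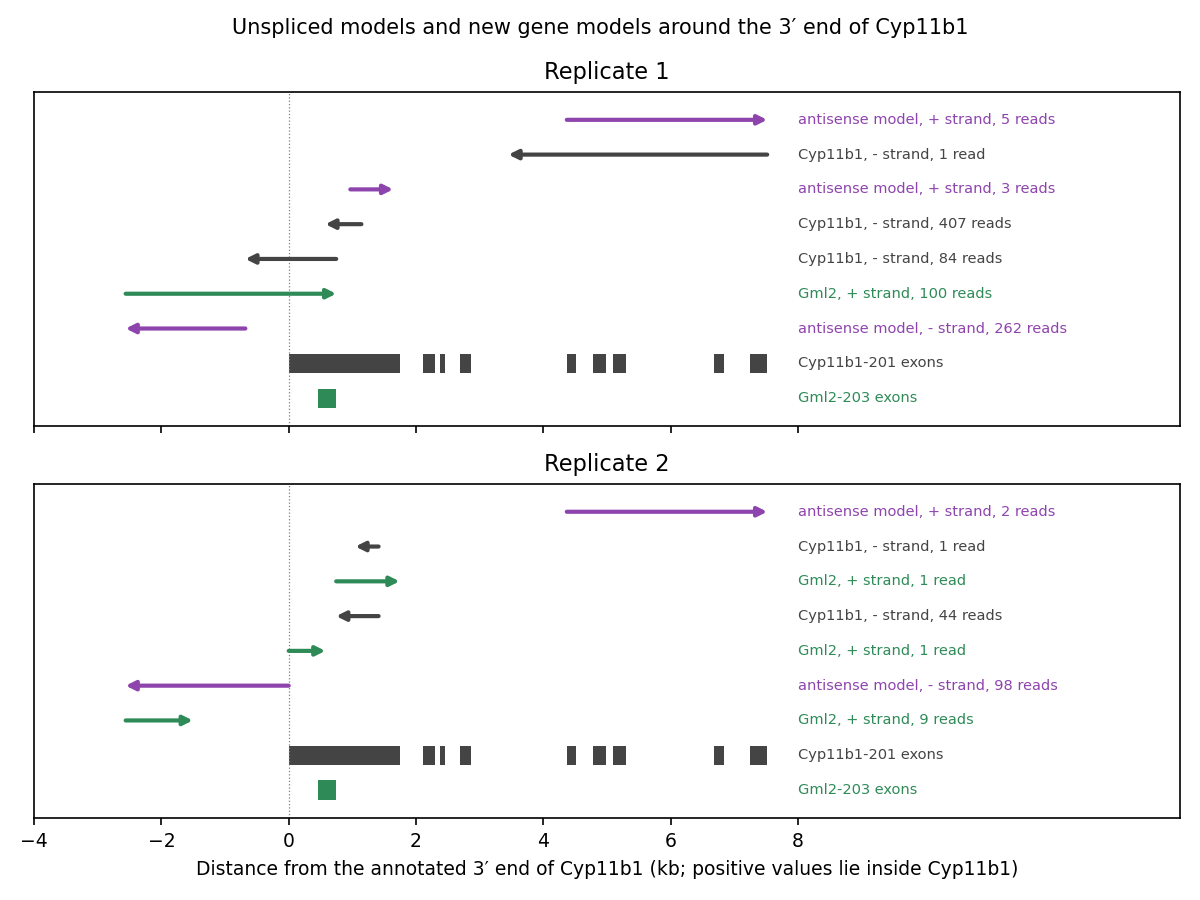
Single-exon models near the 3′ end of Cyp11b1 in replicate 1 (top) and replicate 2 (bottom), as arrows in the direction of transcription against the distance in kb from the annotated end, with read counts at the right and annotated exons as boxes. Reads on the minus strand past the end of Cyp11b1 (262 and 98) face plus-strand reads counted for Gml2 (100 and 11).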

How the data were processed

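Adrenal gland RNA of female mice was profiled by long-read sequencing in 2 libraries of 1 group. The authors deposited whole-number read counts per transcript model and the models themselves. Per the file headers, new models came from TALON, on mm10 with GENCODE M21, and per the deposited readme the counts derive from filtered alignments. Aligner, platform and TALON version: not given in the sources used here. Transcript classes are the authors'. Counts were summed per gene over all classes and scaled to CPM over reads of annotated nuclear genes.

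Members and lists were chosen with earlier results of these data known. Replicate 2 was compared with replicate 1 by two-sided Fisher's exact tests over genes with at least 10 reads (SciPy 1.17.1). Calls needed a Benjamini-Hochberg adjusted p under 0.05 and 2-fold. Shares of the main transcript and of reads outside annotated transcripts needed 50 reads in each library and 10 points. Log2 ratios used 0.5 added reads. Tests were checked on simulated counts that held counting error only, with no variation between animals or preparations. With 1 library a side, edgeR 4.0.16 and DESeq2 1.42.0 gave scaling factors only. Intervals are exact (Clopper-Pearson, 95%) and, like floors of 3 counts, cover counting error only. Models were matched between libraries by intron chain. Exon skipping and retention were counted over spliced models that span the feature. Named models had at least 3 reads in either library (Cyp11b2, Gml2), or 10 in either or 3 in both (Cyp11b1). Identity used transcript sequences of M21, aligned per exon. Reads of near-identical exons may be assigned to the wrong Cyp11b gene.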

Additional observations from a re-analysis of the deposited data

Results flagged for a closer look

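Signals stood in new gene models, which no gene count includes, above the 3 reads that a count of 0 allows. On the minus strand past Cyp11b1 the antisense-class model had 262 reads in replicate 1 and 98 in replicate 2. On the plus strand opposite Cyp11b1 an antisense-class model had 5 reads in replicate 1. An intergenic model beside the end of Cyp11b2 had 8 reads in replicate 2. Added to the genes they adjoin on the same strand, a choice made after seeing the data, the minus-strand models would raise the mean level of Cyp11b1 from 13717 to 13923 CPM and that of Cyp11b2 from 964.6 to 972.5 CPM.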

How the results depend on the processing

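Of the main results, Gml2 depended most on the classes summed: its level was 0 CPM with annotated transcripts alone and 0 CPM without the genomic class. Genes with a different main transcript share numbered 344, but 14 once incomplete and genomic reads were left out and 547 with at least 20 reads in each library. In the first of these settings the Cyp11b1 difference was reversed, at -0.36 points. Genes with a different share outside annotated transcripts numbered 371, but 89 without incomplete matches and 575 with at least 20 reads. Shared models of the 3 genes numbered 63 at 1 read and 16 at 10 reads. Leaving out either library, means ranged from 11523 to 15911 CPM for Cyp11b1, from 843.5 to 1086 CPM for Cyp11b2 and from 21.9 to 82.7 CPM for Gml2, and the read ratio from 10.6 to 18.9. Exon 4 skipping ranged from 2.50% to 3.59% in Cyp11b2 and from 0.0382% to 0.0464% in Cyp11b1. Intron 8 retention ranged from 3.78% to 5.07% in Cyp11b2 and from 0.679% to 0.842% in Cyp11b1, and use of the acceptor before Cyp11b1 exon 9 from 1.10% to 1.43%. Counting only models from exon 1 to exon 9 gave 2.92%, 0.0427%, 4.36%, 0.726% and 1.27% in that order, and these choices on splicing were added after seeing the data. Gml2 stayed called with TMM and median-of-ratios scaling, with other minimums and in a thinned library. No paired analysis was possible because the design has 1 group. Leaving out a library ends the comparison of libraries, so those tests were not rerun. The depth of replicate 2 limits forms of Cyp11b2 and Gml2.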

Other observations

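The same intron chain could carry different class names in the libraries. This was so for 10 of 51 chains of Cyp11b1 found in both and for 2 of 12 of Cyp11b2. The chain with the 107-base exon in intron 2 was new in catalog in replicate 1 (15 reads) and new not in catalog in replicate 2 (7 reads), and the chain with the acceptor 4 bases inside exon 4 likewise (10 and 13 reads). 

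Many Cyp11b1 models outside the annotated transcript, incomplete matches included, ended at an exon edge of the opposite gene. Of 130 spliced models outside the annotated transcript in replicate 1, 111 ended at chr15:74834587 or chr15:74834871, the edges of the last exon of Gml2-203 on the other strand. In replicate 2 it was 55 of 83. These models held 950 of 1200 and 151 of 463 reads. Between the libraries the same chain could end at different bases: the form with the acceptor before exon 9 ended at chr15:74834587 in replicate 1 and chr15:74831563 in replicate 2.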
